A study of Caenorhabditis elegans with 4 samples.

Results

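The X chromosome of Caenorhabditis elegans carried 232 of the 1828 binding sites in the combined list for ZTF-4, a zinc finger transcription factor, in L2 larvae. A site was taken as a member when the list places it on X, and no measured value entered that choice. The lists of the single ChIP samples placed 106 of 744 sites (replicate 1) and 115 of 813 sites (replicate 2) on X, and these served as evidence from each replicate. The 1596 autosomal sites of the combined list were the comparison.

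The assay was ChIP-seq, the sequencing of DNA that is pulled down with a chromatin protein, on whole hermaphrodite worms of strain OP322, which carries the unc-119(ed3) mutation and the transgene wgIs322. The transgene holds ztf-4 fused to TY1, EGFP (enhanced green fluorescent protein) and FLAG tags, beside unc119(+) as a rescue of the mutation, and it was introduced by biolistic transformation without an outcross. No mutation of the resident ztf-4 gene is listed, so untagged protein may be present beside the tagged one. Larvae were grown at 20 degrees Celsius and fixed in 2% formaldehyde, and a goat antibody against GFP collected the tagged protein. All 4 samples, 2 ChIP and 2 input, share this strain, stage and treatment. The labels do not say that the replicates are separate cultures, and their spread may therefore be technical. The sites come from whole larvae and cannot be assigned to a cell type.

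In worms the X chromosome is present in a pair in hermaphrodites and singly in males, and a dosage compensation complex bound along the X chromosomes of hermaphrodites lowers their transcription. Genes active in the germline are scarce on X. The autosomes have gene-dense centres with low recombination between arms with higher recombination, a contrast that is weaker on X.

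Positions are on WormBase WS180 and 1-based. The strength of a site is the authors' q-value from the caller PeakSeq, which is smaller for stronger sites and is also given here as −log10 q. Read counts, fold enrichments and summits are not part of the values used here, so the depth is unknown and occupancy itself was not measured. Genes beside the sites were not analysed here, since no WS180 annotation was used.

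The smallest q-values on X in each ChIP sample were at a pair of loci that have no row in the combined list. A locus here joins replicate sites with gaps under 500 bp. Such loci were not limited to X: of the loci called in both replicates, 2 of 82 on X and 6 of 446 on the autosomes had no combined site. The first locus, X from 4137557 to 4149328, spans 11772 bp. In replicate 1 it held 3 sites, the strongest with q = 1.93e-255, which is rank 1 of that whole list. In replicate 2 it held 2 sites, the strongest with q = 3.50e-263, which is rank 2. Both samples thus placed this locus at or next to the top of all chromosomes. Replicate 1 broke it after 4139056 and 4141806, while replicate 2 covered most of it with 1 site of 10909 bp.

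The second locus, X from 16929251 to 16932037, was much narrower, at 2787 bp, and held 1 site in each replicate. Its q-value was 1.30e-190 in replicate 1 (rank 3) and 5.60e-188 in replicate 2 (rank 4). Both loci had far smaller q-values than the next X site of either list, which reached 1.22e-69 in replicate 1 and 1.73e-62 in replicate 2. The combined list is not empty beside them. A combined site only 181 bp wide (16932340 to 16932520, q = 1.39e-07) begins 302 bp after the second locus, and it overlaps no site of either replicate. On the left of the first locus the nearest combined site, 4135200 to 4136169 (q = 8.29e-14), ends 1387 bp away, and on the right the next is 43.5 kb away.

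Of the 10 strongest combined sites on X, all were found in both replicates, where found means an overlap of at least 1 bp. Since the combined list is of the same ChIP samples, this overlap is not independent support. The first of the 10 sites runs from 12662175 to 12669445 with a combined q of 2.43e-156. Its q was 6.90e-62 in replicate 1 and 1.73e-55 in replicate 2. The next, 6251995 to 6257533, had 1.80e-131, 1.22e-69 and 1.73e-62 in the same order. These sites are 7271 and 5539 bp wide. The order of the pair differs between lists, since both replicates rank the second above the first, while the combined list ranks them 6 and 9 among all chromosomes.

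The next 2 sites in rank lie towards the ends of X. The site from 1502994 to 1505188 had a combined q of 3.77e-99, with 1.08e-53 from replicate 1 and 3.41e-60 from replicate 2. The site from 17419482 to 17422448 had 1.91e-77, 3.09e-45 and 4.49e-50. Both had the smaller q in replicate 2, opposite to the 2 sites above them. A q-value also depends on depth, so such differences cannot be read as differences in occupancy.

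The 6 sites that complete the 10 had combined q-values from 4.33e-56 to 3.22e-49. They start at 8017421, 11468389, 11602859, 6740361, 3114259 and 14525404. All but the last of these are wider than 3000 bp, the last being 912 bp wide. The site at 11468389 differed most between replicates among them, with q = 1.19e-18 in replicate 1 and 7.58e-30 in replicate 2. Together the 10 sites make up 18.3% of all base pairs covered by combined sites on X.

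The sites of replicate 1 not yet named that ranked among its 10 strongest on X start at 4208567 (q = 1.97e-27), 8035905 (9.86e-26) and 11093744 (2.03e-24). Of these only the first, at 4208559 with 1.94e-26, was also among the 10 strongest on X in replicate 2. The others had q = 4.95e-23 and 3.30e-25 in replicate 2, so they were called there with like strength. Each of these 3 places has a combined site with a q-value between 1.13e-42 and 2.74e-39.

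Over the 82 X loci called in both replicates, the −log10 q of the strongest site rose together in both samples (Pearson's r = 0.996, Spearman's rho = 0.848). These are descriptions across loci of the same 2 samples. The 2 absent loci are the farthest from the median, and leaving them out gave r = 0.966 and rho = 0.836. The autosomal loci, 446 in number, gave 0.981 and 0.821. Replicate 2 had the smaller q at 45 X loci and replicate 1 at 37, and on the autosomes the counts were 259 and 185. The ratio of the −log10 q of replicate 2 to that of replicate 1 had a median of 1.02 and ran from 0.585 to 2.32. The largest ratio was at 17479179 to 17480562, with q = 1.40e-06 in replicate 1 and 2.68e-14 in replicate 2. The smallest was at 6232860 to 6233651, with 9.30e-08 and 7.69e-05.

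**Figure D1:**
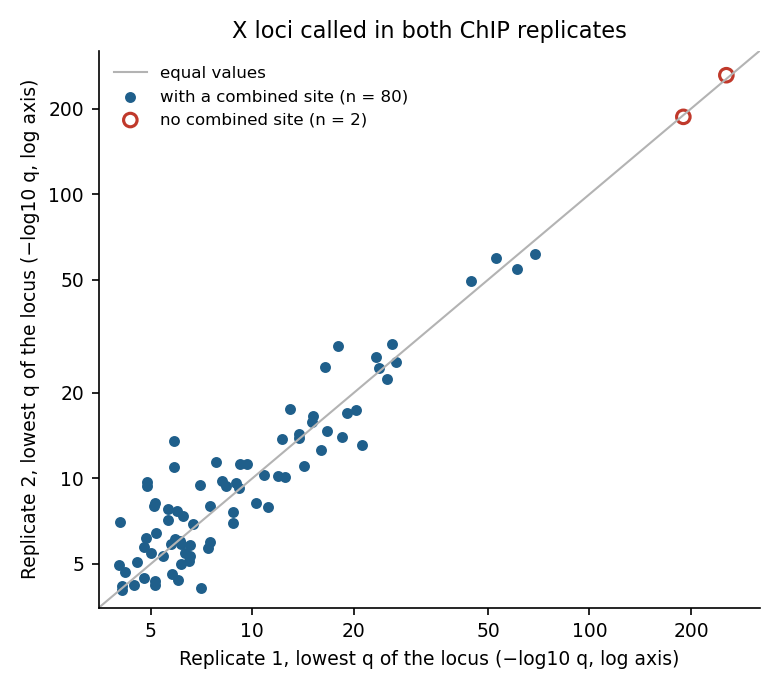
Strength of the X loci called in both ChIP replicates, as the −log10 q of the strongest site in replicate 1 (horizontal, log axis) and replicate 2 (vertical, log axis), with a grey line at equal values. The 80 loci with a combined site end near 69 and 62, and the 2 loci without one (open red circles) stand apart at 255 and 262 and at 190 and 187.

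Where a combined site was present, its −log10 q was in the median close to the sum of the replicates' values, while single loci departed from it. At the 80 X loci with one, the ratio of the combined value to the sum of both replicates' strongest sites had a median of 0.929. Its middle 50% lay between 0.823 and 1.09, and it ran from 0.426 to 1.77. The 440 autosomal loci had a median of 1.02, with the middle 50% between 0.896 and 1.18 and a range of 0.491 to 7.94. These ranges overlap and the difference was not tested. At 79 of the 80 X loci and 430 of the 440 autosomal loci the combined q was smaller than that of either replicate. Paired replicate sites on X had midpoints a median of 69 bp apart, and 53 of 87 pairs (60.9%) lay within 100 bp. The autosomal pairs had a median of 78 bp, with 57.7% within 100 bp.

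Most X sites called in 1 replicate had a partner in the other. Of the replicate 1 sites on X, 87 of 106 (82.1%, 95% Wilson interval 73.7 to 88.2%) overlapped a replicate 2 site, where the background over all chromosomes was 79.0%. Of the replicate 2 sites on X, 86 of 115 (74.8%, 66.1 to 81.8%) overlapped a replicate 1 site, against 71.5% over all. The difference between X and the autosomes passed the test in neither list. The odds ratio was 1.25 (95% interval 0.725 to 2.26) in replicate 1 and 1.22 (0.763 to 1.98) in replicate 2 (Fisher's exact test, two-sided, adjusted p = 0.619 for each, over a family of 7 tests). The 19 replicate 1 sites without a partner were weak, with a median −log10 q of 4.65 and none above 6.67. In replicate 2 the 29 without a partner had a median of 4.90, and the strongest, 12203749 to 12206261, had q = 3.19e-11. It overlaps 2 combined sites.

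Of the 106 replicate 1 sites on X, 100 overlapped a combined site (94.3%, against 96.2% over all chromosomes). Of the 115 replicate 2 sites, 108 did (93.9%, against 97.8% over all). The 6 and 7 sites without a combined site include the 4 and 3 that form the absent loci. The others, 2 in replicate 1 and 4 in replicate 2, had no partner in the other replicate and q-values from 8.18e-06 to 6.60e-05. On the autosomes, 9 sites of each replicate had a partner in the other and yet no combined site. Among autosomal sites without a partner, 13 of 137 in replicate 1 and 2 of 203 in replicate 2 lacked a combined site. The difference between X and the autosomes in these counts was not tested.

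Of the 232 combined X sites, 80 were found in both replicates (34.5%, 28.7 to 40.8%), 16 in replicate 1 only, 24 in replicate 2 only and 112 (48.3%, 41.9 to 54.7%) in neither. Over all chromosomes 28.8% were found in both and 52.4% in neither. On the autosomes 447 of 1596 (28.0%) were found in both. The odds ratio of X to autosomes was 1.35 (0.996 to 1.83), which did not pass the test (Fisher's exact test, two-sided, adjusted p = 0.103). By chromosome, the share found in both was lowest on I (19.9%), and X (34.5%) stood beside II (34.8%). X sites made up 15.2% of the sites found in both replicates and 11.7% of those found in neither, beside 12.7% of all combined sites.

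**Figure D2:**
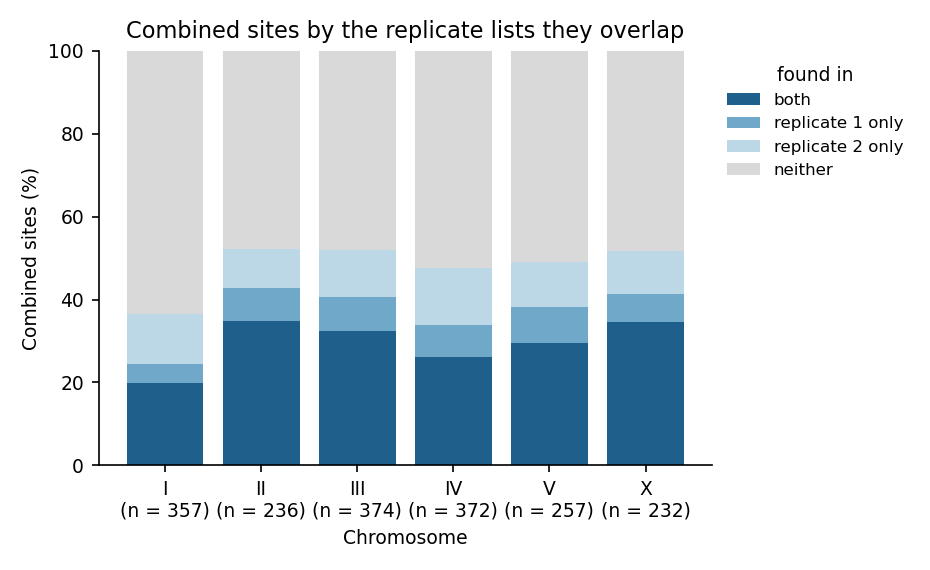
Share of the combined sites of each chromosome (%, stacked to 100) that overlap replicate sites from both samples, from a single sample or from none, with the number of sites under each bar. The dark part, found in both, is 34.5% on X, close to the 34.8% of II and above the 19.9% of I.

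Support in the replicates fell with strength along the X list, as it did on the autosomes. In the strongest 25% of the whole combined list, 87.7% of X sites and 86.0% of autosomal sites were found in both replicates. In the weakest 25% the shares were 2.00% (1 of 50) and 0.246% (1 of 407), which is a single site on each side. The combined list is of the same 2 ChIP samples, so this overlap is not independent support. The 30 strongest combined X sites were all found in both replicates. The strongest found in neither came at place 60 of the 232, from 6736260 to 6739529, with q = 5.46e-13. It was followed by 12201370 to 12202951 (8.98e-13) and 5352190 to 5353005 (5.63e-11). The first of these 3 ends 831 bp before one of the 10 strongest sites, and the second has combined sites 421 and 335 bp away. At the other end, the weakest sites found in both were 15604369 to 15604792 (q = 1.88e-05), 15535997 to 15536447 (4.30e-06) and 15534781 to 15535783 (2.61e-06). The last 2 are 213 bp apart and overlap the same replicate site in each sample.

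The median −log10 q of X sites was 15.6 among those found in both replicates and 4.98 among those found in neither. The autosomal medians were 16.5 and 4.97. A q under 1e-10 was reached by 72 of 232 X sites (31.0%, 25.4 to 37.3%), where the background was 29.4%, and by 29.1% of autosomal sites. The odds ratio was 1.09 (0.800 to 1.49), which did not pass (Fisher's exact test, two-sided, adjusted p = 0.687). Among the 100 strongest sites of a list, X held 19 in replicate 1, 15 in replicate 2 and 13 of the combined ones. Its shares of the whole lists were 14.2%, 14.1% and 12.7%.

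Sites on X were wider than autosomal sites in the combined list, with fewer narrow sites among them. The median width was 790 bp on X and 612.5 bp on the autosomes, and the medians of the single autosomes ran from 583 bp on I to 678 bp on II. In replicate 1 the medians were 730.5 bp on X and 691 bp on the autosomes, but I (761 bp), II (788 bp) and III (753 bp) were above X. In replicate 2 they were 816 and 722 bp, and II (844 bp) was above X. Wider than 500 bp were 178 of 232 X sites (76.7%, 70.9 to 81.7%), against a background of 63.6%, and 984 of 1596 autosomal sites (61.7%, 59.2 to 64.0%). This odds ratio was 2.05 (1.48 to 2.88; Fisher's exact test, two-sided, adjusted p = 2.45e-05 over 9 tests). The highest share on a single autosome was 62.7%, on II. At 1000 bp, the limit of the main test, 34.1% of X sites and 27.3% of autosomal sites were wider, against a background of 28.1%. That difference did not pass (odds ratio 1.38, 1.01 to 1.86, Fisher's exact test, two-sided, adjusted p = 0.103). On II alone 33.5% of combined sites were wider than 1000 bp. The limit of 500 bp was one of the alternatives, and it was taken up after its result was seen.

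The single replicates leaned the same way at 500 bp. In replicate 2, 83.5% of X sites and 70.9% of autosomal sites were wider, against a background of 72.7% (odds ratio 2.07, Fisher's exact test, two-sided, adjusted p = 0.0139). In replicate 1 the shares were 79.2% and 70.7%, with a background of 71.9%, and the difference did not pass (odds ratio 1.58, Fisher's exact test, adjusted p = 0.144). The difference at 500 bp in the combined list was seen among sites found in neither replicate. There 62.5% of X and 47.6% of autosomal sites were wider (adjusted p = 0.0104, Fisher's exact test). Among sites found in both, the shares were 93.8% and 84.3% (adjusted p = 0.0721, Fisher's exact test). Within 10 groups of like q the pooled Mantel-Haenszel odds ratio was 2.32. Wider than 3000 bp were 10 of 232 X sites (4.31%) and 4.89% of autosomal sites. Wider than 5000 bp were 6 X sites (2.59%) and 15 autosomal sites (0.940%) of the combined list. In the replicates few sites were so wide. Their shares on X and the autosomes were 0.943% and 1.25% in replicate 1 and 1.74% and 1.15% in replicate 2. These differences were not tested. The widest X site of the combined list, at 11468389, was 7462 bp, and the narrowest 3 were 2, 2 and 13 bp, none of them found in a replicate.

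**Figure D3:**
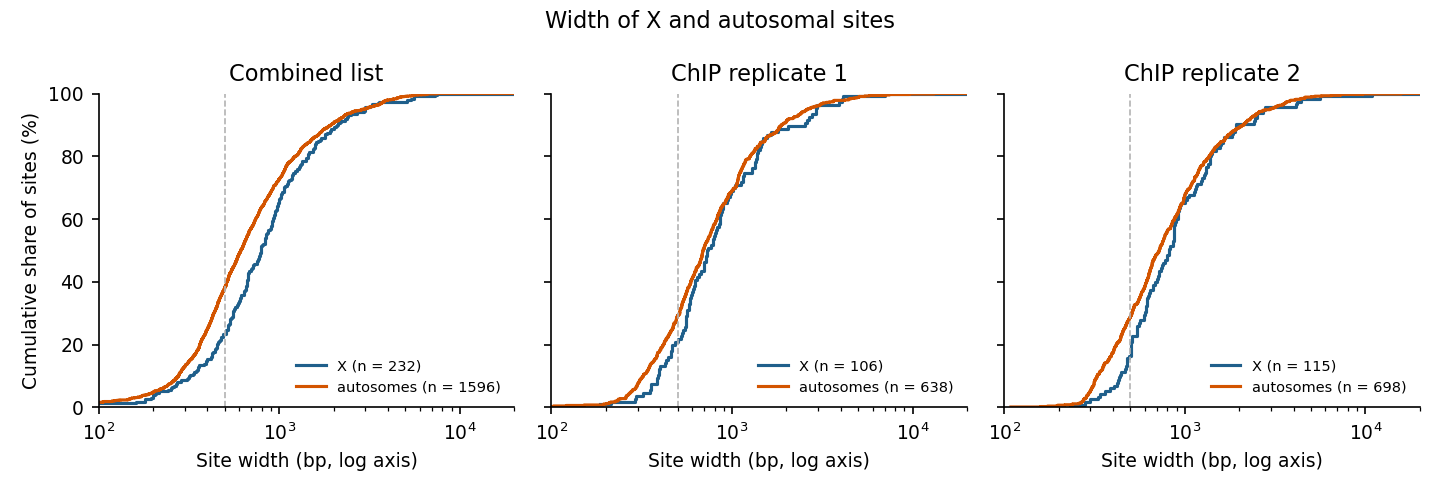
Cumulative share of sites (%, vertical) by width (bp, log axis) for X (blue) and the autosomes (orange) in the 3 lists, with a dashed line at 500 bp. Sites under 100 bp lie left of the axis. The X curve runs below the autosomal one at the dashed line in each list, at 23.3% against 38.3% in the combined list, and the curves lie close together at large widths.

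Along the chromosome, X sites lacked the concentration in the centre that the autosomal sites had. The central 50% of the span held 108 of 232 X sites (46.6%, 40.2 to 53.0%) and 1004 of 1596 autosomal sites (62.9%), against a background of 60.8%. The shares of the single autosomes ran from 57.8% on IV to 70.0% on V. The odds ratio of X to all autosomes was 0.514 (0.385 to 0.684, Fisher's exact test, two-sided, adjusted p = 1.82e-05). That p-value treats neighbouring sites as independent. With sites within 20 kb counted once, 65 of 139 on X and 447 of 740 on the autosomes were central. The odds ratio was then 0.576 (Fisher's exact test, adjusted p = 0.0249). Among sites with q under 1e-10 the difference kept its direction without passing (odds ratio 0.571, Fisher's exact test, adjusted p = 0.103). In the replicate lists the X shares were 45.3% and 43.5%, and the autosomal shares 63.2% and 65.5%. The lowest single autosome was IV, at 53.5% in replicate 1 and 60.3% in replicate 2. In 4 successive stretches of equal length, X held 59, 59, 49 and 65 combined sites, 33, 23, 25 and 25 sites of replicate 1, and 36, 24, 26 and 29 of replicate 2. The left and right parts of X on either side of its midpoint held 118 and 114 combined sites (exact binomial test, two-sided, adjusted p = 0.844). Of the central X sites 30.6% were found in both replicates, against 37.9% of outer X sites, while the autosomal shares were 28.7% and 26.9%. A q under 1e-10 was reached by 34.3% of central and 28.2% of outer X sites, and 37.0% and 31.5% were wider than 1000 bp. Those differences were not tested.

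**Figure D4:**
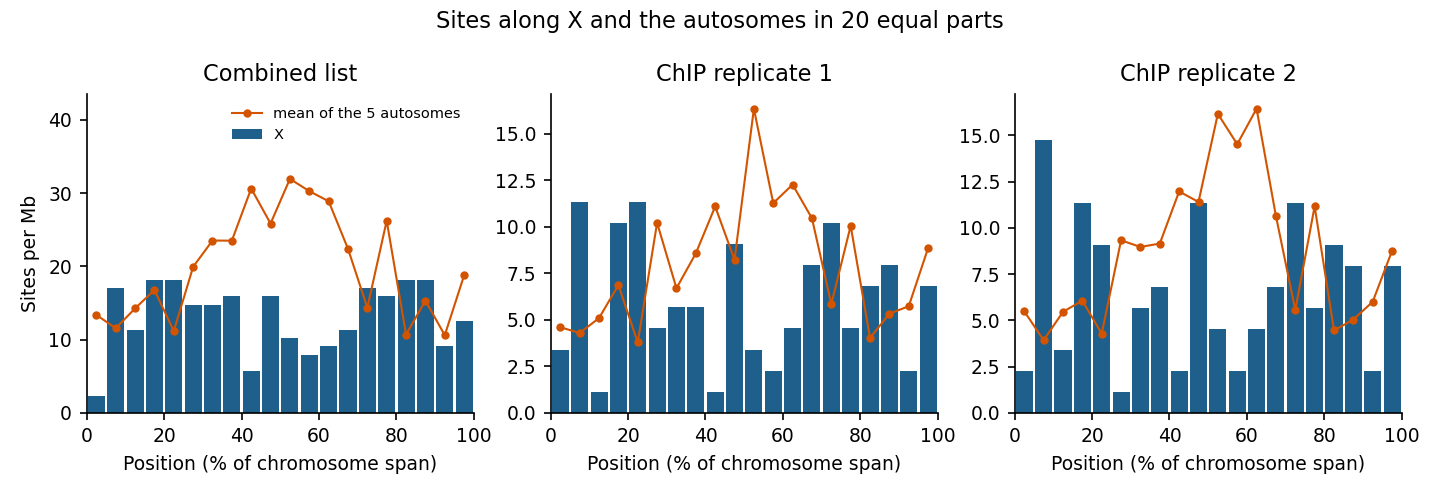
Sites per Mb (vertical) in 20 equal parts of the chromosome span (horizontal, %) for X (blue bars) and as the mean of the 5 autosomes (orange points and line), for the 3 lists. The vertical scales differ between panels. The autosomal line is highest around the middle, whereas the tallest X bars of each list lie outside the central 50%. X holds 46.6% of its combined sites in the central 50%.

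By 1 Mb stretches, the 17 full ones held a median of 15 combined sites, with a range of 5 to 18. The fullest, 6000001 to 7000000, held 18 combined sites but 5 of replicate 1 and 6 of replicate 2, and 13 of its 18 sites were found in neither. The stretch from 1000001 to 2000000 held 12 combined sites, 9 of them found in both replicates, and with 12 sites it was the fullest of replicate 2. The replicate 1 maximum, 12 sites, fell at 4000001 to 5000000, where the first absent locus lies. The fullest stretch of X thus differed between the 3 lists. The lowest combined counts, 5 sites each, were in the first stretch and from 10000001 to 11000000, and all 5 of the latter overlapped a replicate site.

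The longest empty stretch of X lay between sites ending at 8475637 and starting at 9342631, which is 867 kb without a combined site. Replicate 2 was empty over the same stretch (867.3 kb), and replicate 1 had no site from 8232258 to 9342909 (1111 kb). The next gap, 613 kb after 1627370, was also empty in both replicates, where it measured 979 kb in replicate 1 and 613 kb in replicate 2. Longer gaps than 867 kb occurred in the combined list on II (1244 kb) and V (1355 kb). The first combined site of X starts at 429283 (q = 2.58e-20, found in both replicates), and the last ends at 17629065 (q = 4.38e-07, found in neither).

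X sites stood alone more often than autosomal sites. The median gap to the nearest site was 8.75 kb on X and 3.04 kb on the autosomes in the combined list, 20.2 and 5.19 kb in replicate 1, and 18.9 and 4.61 kb in replicate 2. The density was lower too, and X had 13.2 combined sites per Mb against 19.4 on the autosomes. Chromosome V, with 12.3 sites per Mb, had a median of 4 kb. A neighbour within 2 kb was present for 27.6% of X sites, against 39.3% on V and between 39.8% and 46.2% on the other autosomes. When sites with gaps under 2 kb were joined into chains, 168 of 194 X chains held a single site (86.6%, 81.1 to 90.7%), against a background of 78.8% and 77.5% on the autosomes. The odds ratio was 1.88 (1.20 to 3.02; Fisher's exact test, two-sided, adjusted p = 0.00992 over 9 tests), in a comparison chosen after the data were seen.

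Against V alone the same comparison did not pass (86.6% against 78.4%, odds ratio 1.78, Fisher's exact test, adjusted p = 0.0783). Neither did it pass in replicate 2 (88.8% against 79.9%, background 81.3%, adjusted p = 0.0861) or replicate 1 (83.1% against 80.2%, background 80.6%, adjusted p = 0.663, both Fisher's exact test). The smallest gap between X sites was 210 bp in replicate 1, 213 bp in replicate 2 and 212 bp among combined sites, and no chromosome had one under 201 bp.

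**Figure D5:**
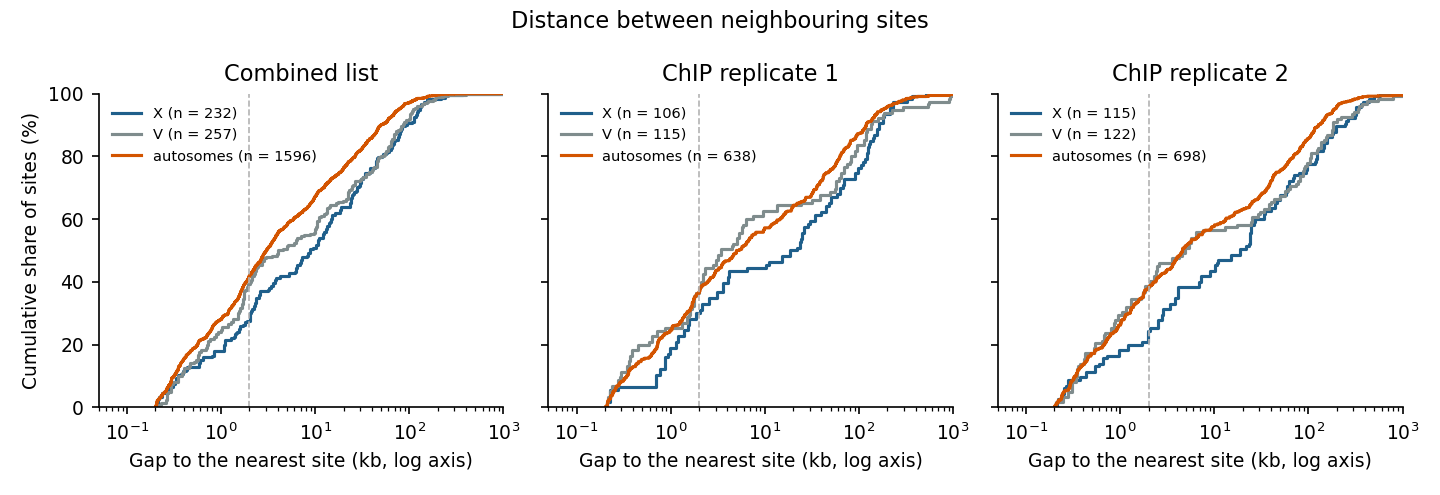
Cumulative share of sites (%, vertical) by the gap to the nearest site on the same chromosome (kb, log axis) for X (blue), V (grey) and the 5 autosomes together (orange), with a dashed line at 2 kb. At that line 27.6% of X sites, 39.3% of V sites and 41.9% of autosomal sites of the combined list have a neighbour.

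When gaps under 20 kb were allowed, the 232 combined X sites formed 139 groups, of which 84 were single sites and 8 held at least 4. The 1596 autosomal sites formed 740 groups, of which 379 were single sites and 116 held at least 4. This difference was not tested. The X groups differed in how far the replicates called them. The largest, 8016603 to 8036880, held 8 combined sites, 5 of replicate 1 and 6 of replicate 2, and 3 of its 8 sites were found in both. It includes 1 of the 10 strongest X sites. From 1443700 to 1454992 all 4 combined sites were found in both replicates, with q-values from 9.08e-23 to 9.77e-09. From 3099846 to 3128316, 4 of 5 were, with q-values from 2.68e-49 to 1.05e-06. By contrast, the 7 combined sites from 2589806 to 2607227 met 1 site of each replicate, and 5 of them were found in neither. Their q-values ran from 4.62e-08 to 3.43e-05. The 4 combined sites from 5115393 to 5136173 met no replicate site, and their q-values ran from 6.89e-07 to 9.74e-05. Groups of like size on X thus ranged from full support in both samples to none, and they also differed in the strength of their sites.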

How the data were processed

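The values used were the start, end and q-value of each binding site on X and the autosomes, for ChIP replicate 1, ChIP replicate 2 and the combined list of the series. No values of the 2 input samples were analysed. Sites were called with PeakSeq and positions are on WormBase WS180, as recorded per the file headers and the second column, and each q-value is used as the authors deposited it. The sources used here do not give the version of PeakSeq, the aligner, the read filters, the input matched to each ChIP sample or how replicates were merged. Depth is unknown, and only sites past a q limit are listed, so absence from a list does not mean absence of binding.

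The analysis used Python 3.11.15, numpy 2.4.6, scipy 1.17.1, pandas 2.3.3, statsmodels 0.14.6 and, for plots, matplotlib 3.10.9. Sites were shared at 1 bp of overlap or more. Chromosome length was taken as the largest site end over the 3 lists, and a site's midpoint decided its position. X was compared with the autosomes by Fisher's exact test on site counts, and both sides of X by an exact binomial test, with Benjamini-Hochberg adjustment over these 7 tests. Tests of width over 500 bp and of single-site chains, added after the data were seen, were adjusted over 9. Tests and 95% Wilson intervals cover counting error only. Neighbouring sites are not independent, so the p-values are too small. Alternatives changed the overlap rule, the limits of q, width and centre, the list, and the counting of nearby sites. Overlap calls and tests were checked on simulated lists. The named sites were the 10 strongest X sites of each list, X loci without a combined site, the 3 strongest found in neither and 3 weakest found in both replicates, and the extremes of density, gaps and groups. Extremes of ratio and width, and the strongest site without a partner, were named after their values were seen. The members, tests and naming rule were chosen with earlier results of these data known.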

Additional observations from a re-analysis of the deposited data

How the results depend on the processing

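Of 57 alternative values for the 9 tested comparisons, 45 had the same direction and call as the main value, and values are odds ratios of X to autosomes unless stated. Limiting sites to q under 1e-10 ended the call for the central 50% (0.571) and turned the share of replicate 2 sites with a partner (0.581), as did q under 1e-05 (0.992); neither is past the threshold. All X sites of replicate 1 with q under 1e-10 had a partner, so no ratio was computed. Width passed at 500 bp (2.05) and not at 1000 bp; at 500 bp it was 1.58 to 2.07 over the single replicates, missing the threshold without replicate 2, and 2.79 among sites found in both, also missing it. Single-site chains missed the threshold at gaps under 1 kb (1.77), against V (1.78), among sites found in a replicate (1.59) and without replicate 1 or 2 (1.22 to 1.99). With sites within 20 kb counted once, the share of X sites left of the midpoint was 45.3% in place of 50.9%. The cause of these changes was not tested; several hold fewer sites. No paired analysis was possible because no values of the input samples were analysed and the tests compare lists of sites. Unknown depth limits every statement about a site that 1 list lacks.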
